A study of Mus musculus with 10 samples.

Results

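The transcription factors that hold together the program of the blood stem cell were measured in 2 fractions of the long-term hematopoietic stem cells of the mouse, which differ in surface neogenin-1 (NEO1). They were chosen by name: GATA2, RUNX1, TAL1, LMO2, LYL1, FLI1 and ERG, which form the group known as the stem cell heptad, and their close partners GFI1B, MECOM and ETV6. All 10 genes were among the 24544 gene symbols of the deposited count table. All 10 were also among the 12203 genes that passed the filter on low counts, with at least 669 counts for each gene in each library, so that no member was lost and none was near the counting floor.

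The heptad proteins bind DNA together at enhancers of blood stem and progenitor cells and of each other's genes, forming a densely connected circuit that is also active in endothelial cells. GATA2 is a zinc finger factor, TAL1 and LYL1 are related basic helix-loop-helix factors that pair with E proteins, and LMO2 is the adaptor that joins the basic helix-loop-helix and GATA proteins through LDB1. RUNX1 is the DNA-binding subunit of core binding factor, FLI1 and ERG are related ETS activators, ETV6 is an ETS repressor, GFI1B is a zinc finger repressor that recruits LSD1, and MECOM is a zinc finger factor needed for long-term stem cells.

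Bulk RNA-seq was available for 5 NEO1+ and 5 NEO1- libraries, made from bone marrow of Hoxb5-mCherry mice aged 2 to 3 months, a strain in which mCherry fluorescence reports the stem cell gene Hoxb5. Both groups were Hoxb5+ cells that were CD150+, SCA1+ and cKIT+ and lacked lineage markers, CD34, CD48 and FLK2, and the sort parted them by NEO1. Each library held RNA of 250 to 500 sorted cells from 2 pooled mice, so that p-values measure the spread between pools. The labels do not say whether a pool gave cells to both groups. The comparison asks whether the NEO1 fractions, which the series title contrasts as myeloid-biased and balanced, differ in the factors of stem cell identity.

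Total counts ranged from 21.2 to 38.95 M (NEO1+) and from 24.5 to 35.3 M (NEO1-). Of 12 stem cell markers, 11 were detected in all 10 libraries. The exception was Hoxb5, the gene of the reporter, with 0 counts in NEO1- library 3 and 7 in NEO1- library 1. In contrast, 5 of 14 lymphoid markers and 7 of 10 mast cell and basophil markers had no count in any library. Of the genes of the negative gate, Flt3 (FLK2) was at 24.0 and 30.0 CPM in NEO1- libraries 4 and 5 and at most at 7.68 CPM elsewhere. Cd48 was at 8.69 CPM in NEO1+ library 3, at 8.20, 4.13 and 3.64 CPM in NEO1- libraries 3 to 5, and below 1 CPM in the other 6. The libraries also differed outside the factors described here. NEO1+ libraries held 13146 ± 391 genes with a count, against 12142 ± 680 for NEO1-, and the ribosomal RNA precursor Rn45s took 32.3 ± 3.89% and 38.4 ± 5.01% of counts (SD, n = 5 each). Summed over 16 genes of G2 and M phase, NEO1+ libraries reached 374 to 631 CPM (the count over the scaled library size in M), against 105 to 293 CPM for NEO1-. Summed over 14 granulocyte and monocyte markers, they reached 493 to 5265 CPM, against 387 to 3102 CPM. The part of these shifts in the values below was not tested beyond a fit with genes detected as a covariate. In bulk samples, fewer cells of a type and less RNA per cell cannot be told apart. Neo1 itself was at 48.6 to 64.8 CPM in 4 NEO1+ libraries. In NEO1+ library 4 it was at 12.5 CPM, within the 4.56 to 18.9 CPM of the NEO1- libraries. Estimates of the members and of their ratios without this library are therefore given where they move by over 1.5 times. For single genes of the lists below, estimates without it are not given.

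To show the letters on which such factors could act, promoter windows from 250 bases before to 50 after an annotated start were taken from RefSeq (GRCm38.p6). The table held 14 windows for 8 members; Lmo2 and Fli1 were not matched. Each window was searched on both strands for GATAA (GATA factors), CANNTG (the E-box of basic helix-loop-helix factors), GGAAG (ETS factors) and TGNGGT (RUNX factors). A match is a description of letters, not a binding site. GATAA was in 5 of the 14 windows, against 25.4% of all 32851 windows of this length. The E-box was in 7 (72.3% of all), GGAAG in 7 (71.4%) and TGNGGT in 6 (45.8%). The windows of Gata2, of Runx1 and of the related pair Tal1 and Lyl1 are printed because the comparisons below turn on these genes. Capitals mark every match to any of the 4 motifs. Gata2, Runx1 and Tal1 have 2 windows each, 1 for each listed start. The count table gives counts per gene symbol and does not separate transcripts by start.
Gata2 distal window, chr6:88193641-88193940, plus strand: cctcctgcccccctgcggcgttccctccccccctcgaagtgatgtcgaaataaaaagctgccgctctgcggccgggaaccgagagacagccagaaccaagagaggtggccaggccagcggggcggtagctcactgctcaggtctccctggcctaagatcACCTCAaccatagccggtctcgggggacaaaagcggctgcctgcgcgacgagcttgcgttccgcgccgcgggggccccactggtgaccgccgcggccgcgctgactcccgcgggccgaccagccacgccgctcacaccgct
Gata2 proximal window, chr6:88198414-88198713, plus strand: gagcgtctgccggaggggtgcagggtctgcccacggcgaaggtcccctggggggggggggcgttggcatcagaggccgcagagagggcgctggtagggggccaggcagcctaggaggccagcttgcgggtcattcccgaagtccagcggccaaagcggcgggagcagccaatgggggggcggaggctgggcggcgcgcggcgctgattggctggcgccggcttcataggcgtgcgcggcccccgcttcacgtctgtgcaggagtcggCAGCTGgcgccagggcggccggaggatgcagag
Runx1 distal window, chr16:92826025-92826324, minus strand: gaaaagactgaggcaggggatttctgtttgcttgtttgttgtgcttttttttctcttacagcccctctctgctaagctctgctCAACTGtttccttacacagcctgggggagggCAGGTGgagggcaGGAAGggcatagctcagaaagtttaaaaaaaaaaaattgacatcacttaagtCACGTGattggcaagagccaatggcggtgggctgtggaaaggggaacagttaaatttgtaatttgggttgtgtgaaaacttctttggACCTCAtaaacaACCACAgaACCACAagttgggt
Runx1 proximal window, chr16:92697280-92697579, minus strand: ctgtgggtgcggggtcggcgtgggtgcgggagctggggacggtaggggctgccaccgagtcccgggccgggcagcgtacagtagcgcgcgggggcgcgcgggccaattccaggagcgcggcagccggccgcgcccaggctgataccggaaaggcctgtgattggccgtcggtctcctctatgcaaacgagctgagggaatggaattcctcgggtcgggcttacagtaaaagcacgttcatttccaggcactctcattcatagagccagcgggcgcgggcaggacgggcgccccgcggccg
Tal1 distal window, chr4:115056176-115056475, plus strand: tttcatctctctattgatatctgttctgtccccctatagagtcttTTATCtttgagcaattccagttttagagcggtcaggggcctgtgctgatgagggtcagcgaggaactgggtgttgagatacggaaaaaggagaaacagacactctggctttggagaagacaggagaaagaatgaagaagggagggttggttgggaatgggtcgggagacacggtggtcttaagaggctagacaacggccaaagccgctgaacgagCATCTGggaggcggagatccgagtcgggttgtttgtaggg
Tal1 proximal window, chr4:115057561-115057860, plus strand: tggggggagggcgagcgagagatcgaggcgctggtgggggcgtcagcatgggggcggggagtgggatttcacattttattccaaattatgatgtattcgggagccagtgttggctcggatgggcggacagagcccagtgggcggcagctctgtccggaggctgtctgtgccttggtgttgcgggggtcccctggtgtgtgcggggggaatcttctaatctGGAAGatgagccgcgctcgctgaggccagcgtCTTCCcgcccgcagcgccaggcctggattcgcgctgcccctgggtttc
Lyl1 window, chr8:84701207-84701506, plus strand: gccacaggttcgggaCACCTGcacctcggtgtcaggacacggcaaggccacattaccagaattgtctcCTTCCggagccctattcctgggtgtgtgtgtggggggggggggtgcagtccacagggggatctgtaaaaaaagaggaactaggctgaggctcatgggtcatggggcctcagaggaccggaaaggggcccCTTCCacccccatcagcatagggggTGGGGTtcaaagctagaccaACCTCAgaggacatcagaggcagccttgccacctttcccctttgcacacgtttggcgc
The distal Runx1 window held 3 matches to the RUNX letters and 3 E-boxes, whereas its proximal window held no match to any of the 4 motifs. The distal Tal1 window held 1 GATA match and 1 E-box, and the proximal one 2 ETS matches. The Lyl1 window held 2 ETS and 2 RUNX matches and 1 E-box.

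Taken per length of annotated exon (GENCODE M21 on GRCm38), the factors spanned a wide range of levels that both groups shared. Lmo2, the adaptor, led with 546 ± 49.7 CPM per kb (SD, n = 10 libraries), above 99.75% of the 12009 tested genes with a length. Lyl1 followed at 126 ± 17.6 and Gata2 at 111 ± 10.5 CPM per kb. These 2 did not part beyond their spread, since Lyl1 was the higher in 6 of 10 libraries. Gfi1b (48.6 ± 13.6) and Fli1 (42.4 ± 5.20 CPM per kb) likewise exchanged places, with Gfi1b the higher in 6 of 10. Etv6 stood at 19.2 ± 3.59, Erg at 13.9 ± 2.02, Tal1 at 10.3 ± 1.62, Mecom at 10.1 ± 2.50 and Runx1 at 6.35 ± 1.82 CPM per kb. Tal1 and Mecom could not be ordered (Tal1 higher in 5 of 10 libraries). Lmo2 exceeded Lyl1, Gata2 exceeded Gfi1b and Fli1 exceeded Etv6 in 10 of 10 libraries. The levels rest on merged exons of all listed transcripts, which reach 12.0 kb for Runx1 and 12.4 kb for Mecom and so lower the values of these genes where long forms are not made.

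**Figure D1:**
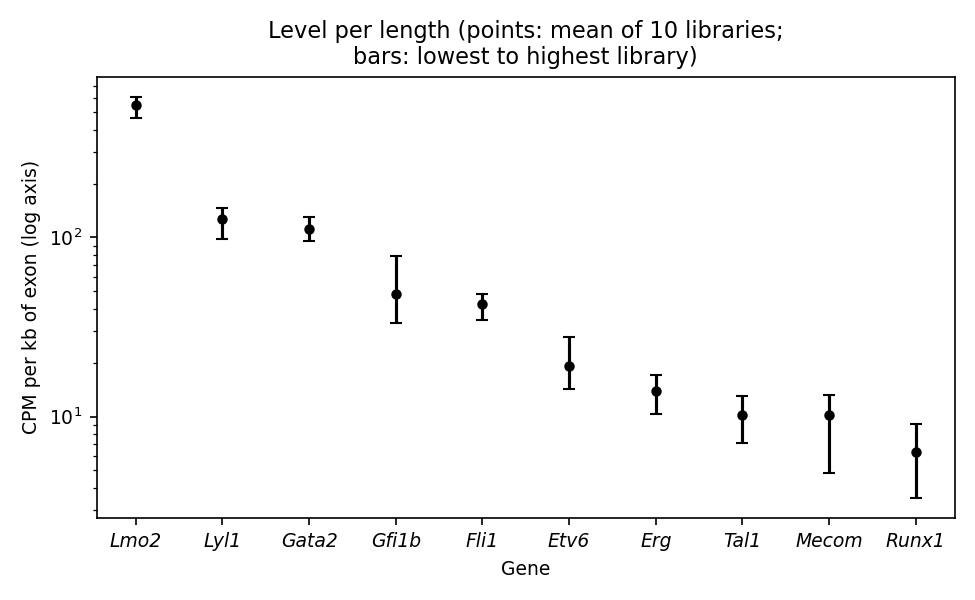
Level per length of the 10 factors, as CPM per kb of annotated exon on a log axis; points are means of 10 libraries and bars run from the lowest to the highest library. Lmo2 stands apart at 546 CPM per kb, Lyl1 and Gata2 share the next rank, and Runx1 is lowest at 6.35.

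Between the NEO1 fractions, none of the 10 factors differed at an adjusted p of 0.05. The edgeR quasi-likelihood test over 12203 genes called 0 of 10 members, as it called 0 of all genes (0%). At an unadjusted p under 0.05 edgeR again had 0 of 10 members, against 6.60% of all genes. DESeq2 also called 0 of 10 (1.07% of all genes it tested), with 1 member, Gata2, at an unadjusted p under 0.05 (9.73% of all genes), and with the library number as a block it again called 0 of 10 (5.43% of all genes). The CPM ranges of the groups overlapped for 10 of 10 members; they did not overlap for 2.48% of all genes (1.35% with NEO1+ above and 1.13% with NEO1+ below). The log2 fold changes of NEO1+ over NEO1- lay between -0.22 and 0.36, with a median of 0.14 against 0.01 over all genes, and 7 of 10 were above 0, against 51.0% of all genes. With genes detected as a covariate the signs of Lmo2, Gfi1b, Mecom and Etv6 turned. Their estimates in that fit were 0.024 (SE 0.125), -0.0100 (SE 0.33), -0.18 (SE 0.286) and 0.054 (SE 0.201), each smaller than its SE. The number of genes detected itself differed between the groups, so this fit cannot tell its part from that of NEO1.

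The intervals say how large a difference remains possible. For 5 of 10 members (Gata2, Lmo2, Lyl1, Fli1 and Etv6) the 95% interval of the log2 fold change lay wholly inside a 1.5-fold difference in either direction, which held for 16.2% of all genes. The count was 6 without NEO1+ library 4 and 4 to 6 when single libraries were dropped in turn. The 1.5-fold limit was chosen after the values were seen. In the gene lists read below, such intervals were found for 39.1% of partners and cofactors and 18.8% of related family members. They were found for 40% of other stem cell transcription factors and 30.4% of target genes. The share over all genes includes genes of low count, whereas each member had at least 669 counts in each library. For the other 5 (Runx1, Tal1, Erg, Gfi1b and Mecom) the upper bound passed 1.5-fold, reaching 0.88 for Runx1, so that these libraries leave room for a difference of that size toward NEO1+.

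**Figure D2:**
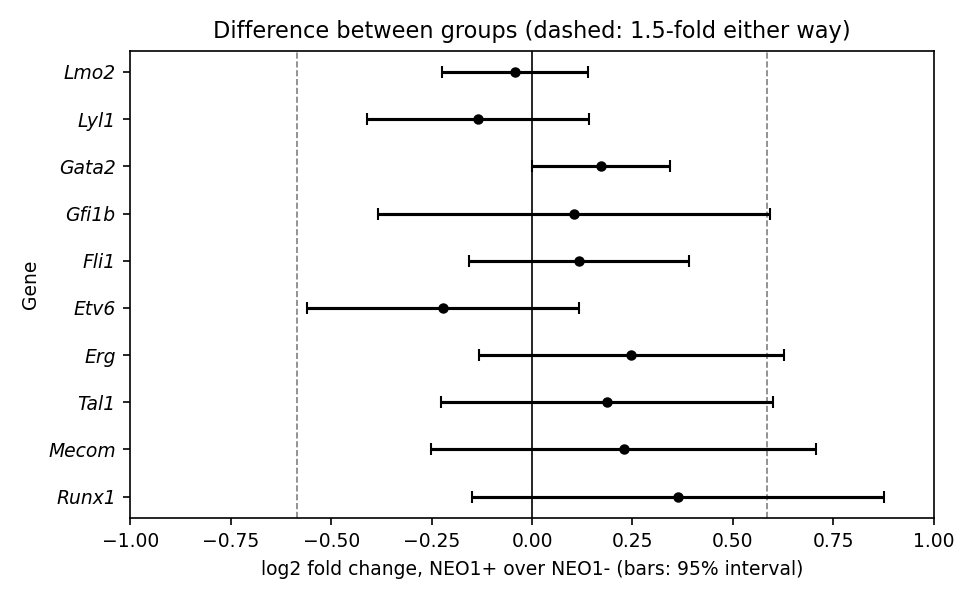
Log2 fold change of NEO1+ over NEO1- for each factor with its 95% interval from the edgeR fit; dashed lines mark 1.5-fold in either direction. Every interval includes 0, and those of Gata2, Lmo2, Lyl1, Fli1 and Etv6 stay between the dashed lines.

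Gata2, on chromosome 6 (88193891 to 88207032, plus strand), had the smallest p of the members. NEO1+ libraries 1 to 5 held 596, 705, 618, 650 and 607 CPM, and NEO1- libraries 1 to 5 held 527, 515, 624, 595 and 559 CPM. NEO1- library 3 alone of its group lay within the NEO1+ range. The means were 635 ± 43.9 and 564 ± 45.9 CPM (SD, n = 5 each). The estimated log2 fold change was 0.17 (SE 0.08, 95% interval -0.00019 to 0.34; edgeR unadjusted p 0.0502, adjusted p 0.750). DESeq2 gave an adjusted p of 0.416 for it and the estimate stayed between 0.13 and 0.21 in 19 alternatives. By root mean square difference of centred log2 CPM over the 10 libraries, Ssfa2, Itpk1 and Samm50 differed least from Gata2. They were at 0.081, 0.089 and 0.096 log2 units, against a median of 0.44 over the 8869 genes compared. Among the members, Erg had the smallest difference (0.13). The measure is also small for genes that vary little, as Gata2 itself does, so it does not show joint variation.

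Lmo2, on chromosome 2 (103957986 to 103981878, plus strand), was the most abundant. NEO1+ libraries 1 to 5 held 1125, 1219, 1159, 1010 and 1312 CPM of it, NEO1- libraries 1 to 5 held 1125, 1249, 1264, 1044 and 1319 CPM. The ranges almost coincided, and in both groups library 4 was the lowest and library 5 the highest. The log2 fold change was -0.04 (SE 0.08, 95% interval -0.22 to 0.14; edgeR adjusted p 0.998), the estimate nearest to 0 among the 10 members.

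The basic helix-loop-helix pair had estimates of opposite sign. Tal1 (chromosome 4, 115056426 to 115071755) was at 48.3, 43.0, 46.6, 56.8 and 44.5 CPM (NEO1+) and 51.2, 31.3, 48.1, 41.9 and 37.7 CPM (NEO1-). Its estimated log2 fold change was 0.19 (SE 0.19; edgeR adjusted p 0.972). Leaving out NEO1- library 2 gave 0.097, leaving out NEO1+ library 4 gave 0.12, and the covariate of genes detected gave 0.32. Lyl1 (chromosome 8, 84701457 to 84704715) was at 177, 220, 201, 263 and 225 CPM (NEO1+) and 254, 259, 239, 255 and 184 CPM (NEO1-). Its estimated log2 fold change was -0.13 (SE 0.13; edgeR adjusted p 0.957). It was -0.069 without NEO1+ library 1 and -0.21 without NEO1+ library 4 or NEO1- library 5. In NEO1- cells 4 libraries lay close together and library 5 was low. Their ratio inside a library does not depend on scaling between libraries. On the log2 scale the ratio of Tal1 to Lyl1 counts was -2.18 ± 0.20 (NEO1+) and -2.51 ± 0.33 (NEO1-) (SD, n = 5 each), a difference of 0.34 that was larger than either SD but did not pass (exact two-sided permutation p 0.0794, Benjamini-Hochberg adjusted 0.476 over 6 ratios). The difference was 0.20 without NEO1- library 2, the library with the lowest ratio.

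Runx1 (chromosome 16, 92601466 to 92826149, minus strand) had the widest spread between libraries of the 10 members. NEO1+ libraries 1 to 5 held 103, 84.9, 109, 82.8 and 50.2 CPM, NEO1- libraries 1 to 5 held 53.1, 42.3, 81.7, 80.9 and 76.1 CPM. NEO1+ library 5 and NEO1- libraries 1 and 2 formed the low end, and the other 7 libraries lay between 76.1 and 109 CPM. The estimated log2 fold change was 0.36 (SE 0.24, 95% interval -0.15 to 0.88; edgeR adjusted p 0.890). Leaving out NEO1+ library 5 gave 0.51, leaving out NEO1- library 2 gave 0.24, and the covariate of genes detected gave 0.12. Its partner Cbfb, the subunit that stabilizes RUNX1 on DNA, had a log2 fold change of 0.19 (SE 0.23), and the ratio of Runx1 to Cbfb counts differed by 0.16 log2 units (exact permutation p 0.651, adjusted 0.651), a sign that turned to -0.05 without NEO1+ library 1 and to -0.0027 without NEO1- library 1.

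Neither ETS activator passed the test. Fli1 (chromosome 9, 32422204 to 32542861) was at 155, 142, 166, 137 and 168 CPM (NEO1+) and 161, 121, 122, 138 and 167 CPM (NEO1-). Its estimated log2 fold change was 0.12 (SE 0.13; edgeR adjusted p 0.980). Leaving out NEO1- library 2 or 3 gave 0.066 and library 5 gave 0.18, and it was 0.071 with genes detected as a covariate. Erg (chromosome 16, 95359169 to 95586593) was at 46.6, 50.7, 53.1, 52.3 and 58.9 CPM (NEO1+) and 39.8, 36.0, 52.8, 49.3 and 42.5 CPM (NEO1-). NEO1- libraries 1, 2 and 5 lay below all NEO1+ libraries, and libraries 3 and 4 lay among them. Its log2 fold change was 0.25 (SE 0.18, 95% interval -0.13 to 0.63; edgeR adjusted p 0.900). The ratio of Erg to Fli1 counts was -1.55 ± 0.13 and -1.68 ± 0.34 on the log2 scale (SD, n = 5 each; exact permutation p 0.413, adjusted 0.533). Their difference of 0.13 became 0.049 when NEO1- library 1 was left out and 0.25 when library 3 was.

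**Figure D3:**
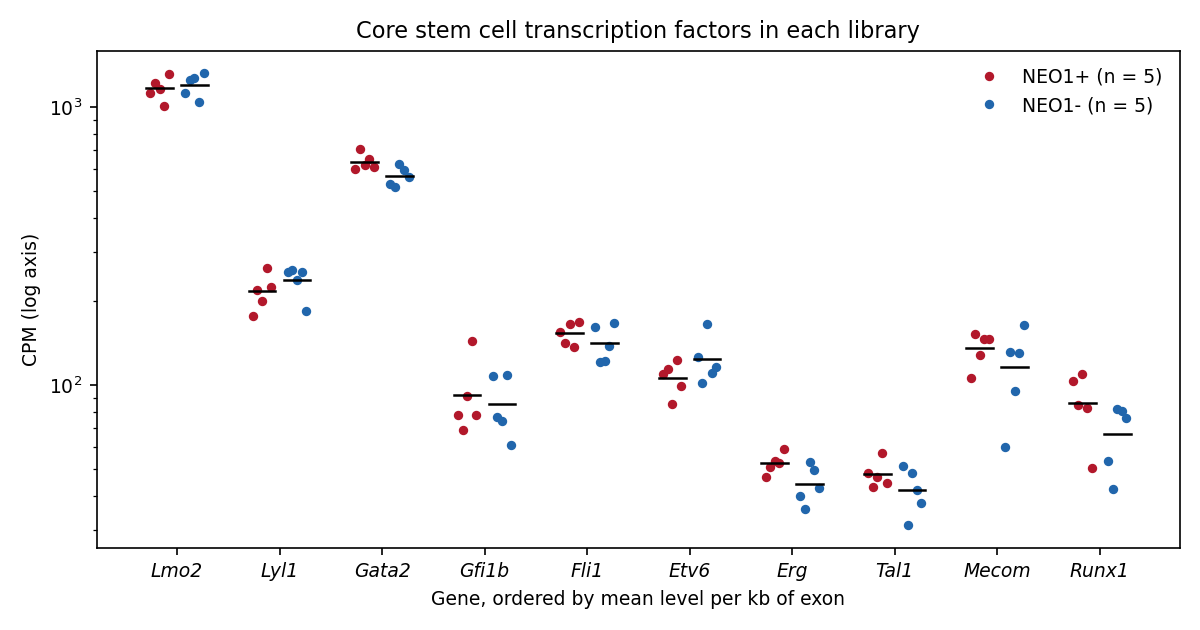
CPM of each factor in each library on a log axis, NEO1+ in red and NEO1- in blue, with the group mean as a black line (n = 5 each), genes ordered by level per kb. The groups overlap for all 10 factors. By eye, single libraries stand off for Gfi1b (144 CPM in NEO1+ library 4), Mecom (59.8 CPM in NEO1- library 1) and Etv6 (166 CPM in NEO1- library 3). The Dixon rule given below flagged none of these, and among the factors it flagged Lyl1 (184 CPM in NEO1- library 5).

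For the repressors and Mecom, the estimates moved with single libraries. Gfi1b (chromosome 2, 28609450 to 28621982) was at 78.3, 68.8, 91.2, 144 and 78.2 CPM (NEO1+) and 108, 76.9, 74.1, 109 and 60.9 CPM (NEO1-). Its estimate of 0.10 on the log2 scale (SE 0.23; edgeR adjusted p 0.998) turned to -0.12 without NEO1+ library 4. Etv6 (chromosome 6, 134035700 to 134270158) was at 110, 114, 85.7, 123 and 98.8 CPM (NEO1+) and 126, 102, 166, 110 and 116 CPM (NEO1-). Its estimate was -0.22 on the log2 scale (SE 0.16; edgeR adjusted p 0.900), -0.09 without NEO1- library 3 and 0.054 with genes detected as a covariate. Mecom (chromosome 3, 29951296 to 30548008) was at 106, 152, 129, 146 and 147 CPM (NEO1+) and 59.8, 131, 95.01, 131 and 164 CPM (NEO1-). Its spread was wider among NEO1- libraries (SD 39.7 CPM) than among NEO1+ libraries (SD 18.9 CPM), a contrast that was not tested. Its log2 fold change was 0.23 (SE 0.22; edgeR adjusted p 0.961), 0.06 without NEO1- library 1 and -0.18 with genes detected as a covariate. The ratio of Mecom to its relative Prdm16, another PR domain factor of stem cells, differed by 0.32 log2 units (exact permutation p 0.444, adjusted 0.533), and by 0.10 or 0.57 when NEO1- library 1 or 2 was left out.

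The spread between libraries of a group differed among the factors as well. The SD of log2 CPM within groups was 0.11 for Gata2 and 0.14 for Lmo2, but 0.39 for Gfi1b, 0.43 for Mecom and 0.43 for Runx1, with a median of 0.22 over the members and 0.57 over all genes. Of all genes tested, 99.5% had a larger SD than Gata2 and 63.5% had a larger SD than Runx1.

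**Figure D4:**
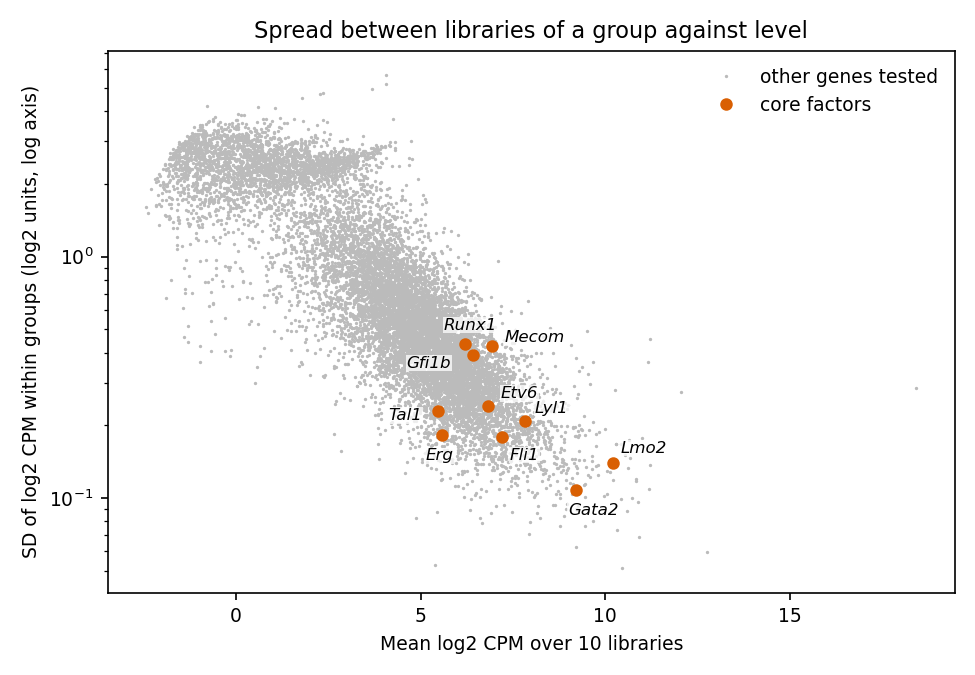
SD of log2 CPM within groups against mean log2 CPM over 10 libraries for the tested genes (grey) and the 10 factors (orange); the vertical axis is a log axis. Gata2 (0.11) and Lmo2 (0.14) have the lowest SD of the members, and Runx1, Mecom and Gfi1b (0.39 to 0.43) lie above the other members.

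Gata1, the GATA factor that replaces GATA2 as red cells and platelets form, had no count in 4 of 10 libraries. It had 438, 0, 797, 57 and 90 counts in NEO1+ libraries 1 to 5 (21.03, 0, 18.6, 1.73 and 2.61 CPM) and 0, 0, 163, 139 and 0 counts in NEO1- libraries 1 to 5 (0, 0, 5.52, 4.22 and 0 CPM). A count of 0 allows up to 3 counts, between 0.0768 and 0.14 CPM in these 4 libraries. Klf1, the red cell factor, was at 4.29 to 29.9 CPM in 4 NEO1+ libraries and had 0 counts in library 2, and it was at 25.5 and 13.3 CPM in NEO1- libraries 3 and 4 and at most at 0.40 CPM in the other 3. The same 6 libraries thus held Gata1 reads and Klf1 above 1 CPM. Gata2 was between 515 and 705 CPM in all 10 libraries. The ratio of Gata2 to Gata1 counts did not part the groups (exact permutation p 0.302, adjusted 0.533), and Gata1 had an edgeR log2 fold change of 2.17 (SE 1.87), a value that depends on the handling of the zeros. Of 13 erythroid markers in the table, the globin genes Hba-a2, Hbb-bs and Hbb-bt had no count in any library, and all 13 summed to 1497 to 2217 CPM (NEO1+) and 1411 to 1754 CPM (NEO1-). The 3 libraries with the most Gata1, NEO1+ libraries 1 and 3 and NEO1- library 3, also had the 3 highest sums of granulocyte and monocyte markers, at 3037, 5265 and 3102 CPM, against at most 1607 CPM elsewhere. The part of either list in the Gata1 values was not tested. Gfi1b works beside GATA1 in red cells and platelets. Its highest library, NEO1+ library 4, had 1.73 CPM of Gata1, and its lowest library in each group, NEO1+ library 2 and NEO1- library 5, had 0 counts of Gata1. NEO1- libraries 1 and 2 also had 0 counts of Gata1, with 108 and 76.9 CPM of Gfi1b. NEO1+ library 1, with the most Gata1 at 21.03 CPM, had 78.3 CPM of Gfi1b. A link between Gfi1b and Gata1 levels was not tested. The ratio of Gfi1b to its relative Gfi1 was 1.24 ± 0.47 (NEO1+) and 1.56 ± 0.38 (NEO1-) on the log2 scale (SD, n = 5 each; exact permutation p 0.270, adjusted 0.533). The difference of -0.32 became -0.18 when NEO1+ library 5 was left out and -0.19 when NEO1- library 3 was.

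**Figure D5:**
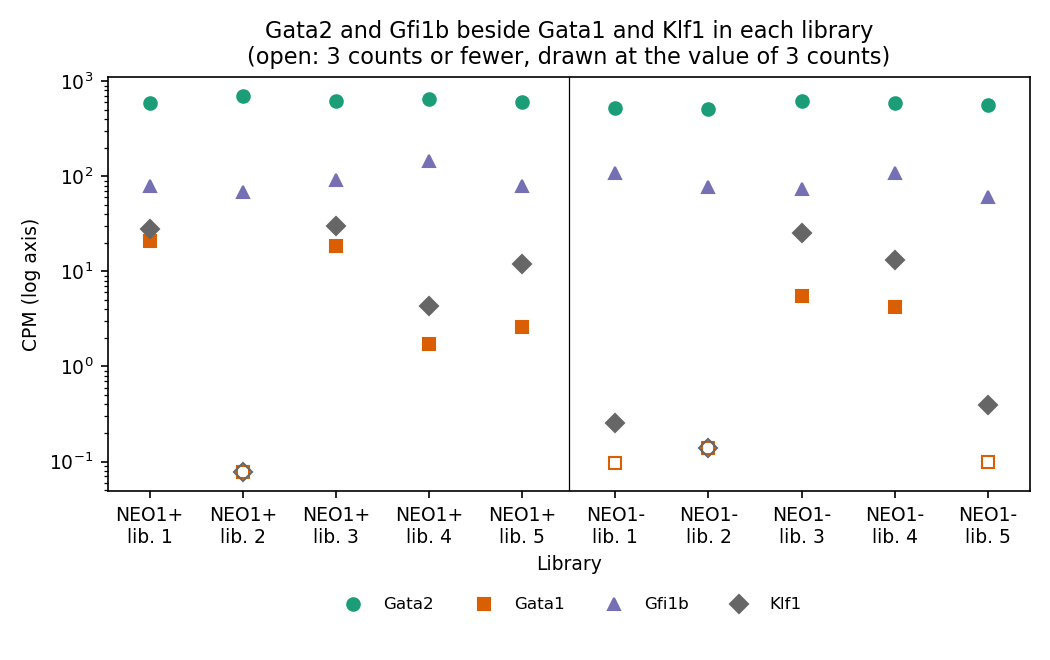
CPM of Gata2, Gata1, Gfi1b and Klf1 in each library on a log axis; open symbols mark 3 counts or fewer and are drawn at the value of 3 counts. Gata2 stays between 515 and 705 CPM while Gata1 ranges from 0 counts in 4 libraries to 21.03 CPM.

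Transcripts of genes linked to the heptad were read from 4 lists, of which Nfe2, Spi1 and Gata1 stand in 2. In edgeR 0 members of any list passed the adjusted threshold. Of 23 tested partners and cofactors, 0 were above and 3 were below at an unadjusted p under 0.05, against 3.11% and 3.49% of all genes. The median log2 fold change was 0.03, and 0.05 without NEO1+ library 4. The count of 3 was 0 without NEO1+ library 2, 3 or 5 or NEO1- library 5 and with genes detected as a covariate, and 1 without NEO1+ library 4. The coactivator Crebbp was at 38.9 ± 12.8 CPM (NEO1+) and 59.1 ± 16.0 CPM (NEO1-) (log2 fold change -0.61, SE 0.25), and the corepressor scaffold Sin3a at 46.6 ± 4.53 and 62.8 ± 14.4 CPM (-0.43, SE 0.19). Cbfa2t3, the corepressor ETO2 that sits on the TAL1 complex, was at 135 ± 8.14 and 169 ± 36.5 CPM (-0.32, SE 0.14). It is named because it is the remaining gene of that count. In the other direction, Ssbp3, which stabilizes LDB1, was at 133 ± 14.5 and 100 ± 31.6 CPM (0.41, SE 0.20), and Ctbp1, a corepressor that binds MECOM, at 316 ± 17.6 and 272 ± 35.1 CPM (0.22, SE 0.10; SD, n = 5 each). The edgeR adjusted p of these 5 was at least 0.673. Among the partners in the TAL1 complex, Ldb1 had a log2 fold change of -0.20 (SE 0.11). The E proteins Tcf3 and Tcf4 had 0.09 (SE 0.15) and 0.11 (SE 0.22), and the E protein Tcf12 had -0.22 (SE 0.31).

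Of 16 tested relatives of the members, 0 had an unadjusted p under 0.05 in edgeR (2 of 17 in DESeq2) and the median log2 fold change was 0.15. Gata3 was at 73.0 ± 7.82 CPM (NEO1+) and 54.5 ± 14.4 CPM (NEO1-) (0.42, SE 0.20; edgeR adjusted p 0.756). The ETS factor Elf4 was at 52.7 ± 8.09 and 41.5 ± 4.82 CPM (0.34, SE 0.18; edgeR adjusted p 0.809; SD, n = 5 each). It was the only relative whose ranges did not overlap, with 47.9 to 66.8 CPM (NEO1+) and 35.2 to 45.8 CPM (NEO1-), as was the case for 1.35% of all genes in this direction. On the other side, Runx2 had a log2 fold change of -0.34 (SE 0.31) and Runx3 of -0.98 (SE 1.19).

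Among 30 other stem cell transcription factors, 2 were above and 2 below at an unadjusted p under 0.05 (3.11% and 3.49% of all genes), and the median log2 fold change was -0.01. These 4 became 2 without NEO1+ library 1 and with genes detected as a covariate. The point estimates of the Mycn and Myc transcripts had opposite signs. Mycn was at 447, 517, 522, 713 and 502 CPM (NEO1+ libraries 1 to 5) and 435, 381, 357, 501 and 346 CPM (NEO1- libraries 1 to 5) (0.42, SE 0.13; edgeR adjusted p 0.539). Myc was at 207, 324, 251, 292 and 233 CPM and at 379, 289, 503, 388 and 266 CPM (-0.48, SE 0.17; edgeR adjusted p 0.586). The groups overlapped for both genes. Hoxa5 was at 36.4 ± 4.64 and 24.9 ± 6.58 CPM (0.55, SE 0.24) and Klf4, a quiescence factor, at 12.7 ± 8.17 and 25.6 ± 11.5 CPM (-1.01, SE 0.43; SD, n = 5 each). Meis1 and Hlf, which are often grouped with the heptad, had log2 fold changes of -0.02 (SE 0.12) and -0.01 (SE 0.12). Hoxb5, the gene of the reporter, was at 2.45 to 4.91 CPM (NEO1+) and 0 to 2.432 CPM (NEO1-). Its ranges did not overlap (1.35% of all genes), by 2.449 against 2.432 CPM, and its log2 fold change was 1.26 (SE 1.26; edgeR adjusted p 0.966).

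The genes known as targets of these factors in blood or vessels included 23 that were tested. Their median log2 fold change was 0.12, and 0.06 without NEO1+ library 4. At an unadjusted p under 0.05 in edgeR, 4 were above and 0 below (3.11% and 3.49% of all genes). They were Selp, Tek, Vwf and Itga2b; the list was written with earlier results for Selp, Tek and Vwf known. Tek, the receptor for angiopoietin, was at 50.1, 55.3, 40.2, 35.8 and 32.8 CPM (NEO1+) and 18.7, 8.90, 14.4, 20.2 and 13.3 CPM (NEO1-) (1.504, SE 0.28, edgeR adjusted p 0.155). Selp, the platelet adhesion receptor, was at 35.2 ± 7.70 and 8.18 ± 3.99 CPM (SD, n = 5 each), with an estimate of 2.10 (SE 0.37, edgeR adjusted p 0.140). Its ranges were 26.3 to 43.8 CPM (NEO1+) and 4.41 to 13.2 CPM (NEO1-). Ranges did not overlap for 2 of the 23 genes, Tek and Selp, against 1.35% of all genes in this direction. Vwf, the platelet and endothelial clotting factor, had an estimate of 0.78 (SE 0.20; edgeR adjusted p 0.368), and Itga2b had an estimate of 0.58 (SE 0.27; edgeR adjusted p 0.747). DESeq2 called Selp, Tek and Vwf (adjusted p 8.29e-06, 5.47e-05 and 0.042) and none of the 10 factors (1.07% of all genes). Among the other platelet genes of the list, Gp1bb had a log2 fold change of 1.89 (SE 1.195), and Gp1ba, Pf4 and Gp9 had -0.75 (SE 0.94), -0.35 (SE 0.76) and -0.22 (SE 0.31). Among other textbook targets, Kit had a log2 fold change of -0.14 (SE 0.10) and Nfe2 of -0.18 (SE 0.12). Of 10 endothelial markers, Cdh5 and Sox17 had no count in any library. The 10 markers summed to 110 to 145 CPM (NEO1+) and 50.2 to 104 CPM (NEO1-), without overlap. No share over all genes was computed for such sums, and 4 of the 10 markers were detected in all libraries. Pecam1 and Cdh5 stand in both this list and the target list. Pecam1 was at 36.3 ± 7.58 CPM (NEO1+) and 19.4 ± 19.6 CPM (NEO1-) (SD, n = 5 each). The sum of 14 megakaryocyte and platelet markers was 950 to 1161 CPM (NEO1+) and 874 to 1151 CPM (NEO1-). The platelet list itself holds Selp, Vwf and Itga2b, and the stem cell list holds Tek. The part of either in the values of these 4 targets was not tested.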

How the data were processed

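The libraries were made by Smart-seq2 with 18 PCR cycles and Nextera tagmentation, per the labels' protocols, without molecular identifiers, so that the limits given for a count of 0 cover counting error only. The authors deposited raw counts per gene symbol. They also deposited log2 values, which equal log2(x + 1) with x the count divided by 1 constant per library (largest residual 5.2e-14), used in 1 alternative. The submitters' processing notes name mm10, bcl2fastq 2.18, STAR 2.4 and DESeq2 1.22.2; the counting tool, annotation and strand setting are not given in the sources used here. These libraries do not mark strand. Exons of opposite-strand genes overlap 0.222 to 2.26% of the exon length of Runx1, Lyl1, Mecom and Etv6, where reads of both cannot be told apart.

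The main test was edgeR's quasi-likelihood F test (version 4.0.16, R 4.3.3) on the counts of all 10 libraries, after filterByExpr and TMM scaling, with a robust fit, no covariate and Benjamini-Hochberg adjustment over 12203 genes and a threshold of 0.05. DESeq2 1.42.0, limma 3.58.1 (voom and trend), other scaling, no filter, a covariate, a replicate block and each library left out were alternatives. The edgeR and DESeq2 fits were also run on simulated counts with known changes, and the outcome is not reported here. Standard errors (SE) were obtained by dividing each absolute log2 fold change by the root of its F, and the 95% intervals, like the SE, reflect the spread between libraries. Log2 CPM used a prior count of 2, as did ratios of counts. No 2 libraries of a group agreed within sampling noise (chi-square of at least 86.7 per degree of freedom). Groups came from the sample titles, and numbered libraries are the samples so numbered there. The members and gene lists were chosen with earlier results of these data known. Named by rule were the members, Neo1, Hoxb5, the 2 genes of smallest p in each direction of each list, and the 3 genes most like the member of smallest p (by root mean square difference of centred log2 CPM) among genes with a mean log2 CPM over 3; other genes were chosen after their values were seen.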

Additional observations from a re-analysis of the deposited data

Results flagged for a closer look

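Of 34 groups of 5 values (log2 CPM of the 10 factors and of Neo1, and the 6 ratios, each split by NEO1), 2 had a value set apart from its nearest neighbor by more than Dixon's 95% critical value of 0.71 of the range, where 1.7 are expected by chance. For Lyl1, NEO1- library 5 held 7.525 log2 CPM while the other 4 of its group held 7.90 to 8.02, and without that library its log2 fold change was -0.21 in place of -0.13. For Neo1, NEO1+ library 4 held 3.655 log2 CPM while the other 4 of its group held 5.61 to 6.02.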

How the results depend on the processing

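The count of core factors past the threshold was 0 of 10 in all 19 alternatives run, leave-one-out fits included. Over all genes, 0 passed in edgeR (806 at an unadjusted p under 0.05), against 147 with DESeq2, 724 with DESeq2 and the replicate block, 2 with limma-voom, 1 with limma-trend on the deposited values, 2 in edgeR without a filter, and 0 to 1 when each library was left out. Target genes past the threshold numbered 3 with DESeq2 and 5 with DESeq2 and the block, and other stem cell factors 2 (Mycn and Klf4) with the latter; 0 passed in these lists elsewhere. The cause was not tested. Estimates changed sign with genes detected as a covariate for Lmo2 (0.024), Gfi1b (-0.0100), Mecom (-0.18) and Etv6 (0.054), and that of Runx1 went to 0.12. Without NEO1+ library 4 those of Lmo2 (0.0036) and Gfi1b (-0.12) did; with each library left out they ran from -0.089 to 0.0036 and from -0.12 to 0.21. The Runx1 to Cbfb ratio turned to -0.047 and -0.0027 without library 1 of NEO1+ and of NEO1-, within -0.047 to 0.41 over all such fits. Both groups carry numbers 1 to 5, and the labels do not say whether equal numbers share a pool. Deviations of same-numbered libraries correlated at 0.004 to 0.036 over all genes tested. This cannot decide the question, since spread between libraries could hide a shared pool. With the number as a block, the edgeR SE fell for Lmo2 (0.084 to 0.052), Mecom (0.222 to 0.156) and Gfi1b (0.227 to 0.175). It rose for Runx1 (0.238 to 0.25), Erg (0.176 to 0.188) and Etv6 (0.157 to 0.181). The main fits did not take the numbers as pairs. With the number as a block edgeR called 0 genes and 0 core factors, and the blocked ratio test, an exact sign-flip permutation of 5 pairs, cannot go below p = 0.0625. With 5 libraries a group, the smallest unblocked exact permutation p is 0.00794, and intervals of Runx1, Mecom, Erg, Tal1 and Gfi1b do not exclude 1.5-fold.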

Other observations

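The 10 factors together took 0.284 ± 0.0195% (NEO1+) and 0.249 ± 0.0247% (NEO1-) of all counts (SD, n = 5 each), with ranges of 0.250 to 0.299% and 0.222 to 0.272%. These shares are of total counts, Rn45s included, whose own share was 32.3% and 38.4%, and they use no scaling between libraries.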
